A study of Mus musculus with 8 samples.

Results

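The Ifitm genes encode the interferon-induced transmembrane proteins, and their RNA was followed in the epidermis of mice given a glucocorticoid on the skin. Ifitm1, Ifitm2 and Ifitm3 were taken as the family, a choice made with FA results of these data known, and each is represented by the bead array probes that the platform annotation gives its symbol. Of the 3 members, 2 had values, Ifitm2 and Ifitm3, each with 1 probe (ILMN_1232667 and ILMN_2658501), among 9416 genes compared. No probe with values carries the symbol Ifitm1, which is not analysed here. The contrast between drug and vehicle chose the members, so their values in that contrast are a description without a test.

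The series holds 8 arrays in 4 groups of 2: females given FA, females given vehicle, males given FA and males given vehicle. All animals were wild-type mice of the B6129 background, 7 to 8 weeks old, shaved 3 days before a single treatment. FA is fluocinolone acetonide, a synthetic glucocorticoid used on skin against inflammation. FA mice received 2 µg in 200 µl of acetone on the back, vehicle mice received acetone alone, and skin was taken 24 hours later. The design counts 2 animals per condition, so each array was read as 1 animal, and how epidermis was parted from the rest of the skin is not given in the sources used here.

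IFITM proteins sit in the plasma membrane and in endosomes, where they hinder the fusion of enveloped viruses with the host cell. Interferons of type I and type II raise their expression through JAK kinases, STAT factors and interferon regulatory factors, which bind response elements near the genes. Ifitm3 and Ifitm2 take part in the defence against influenza and other viruses that enter through endosomes. Glucocorticoids act through a nuclear receptor that induces some genes and represses many inflammatory ones.

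Both members lie on the minus strand of chromosome 7 in a cluster of 5 Ifitm genes, in the order Ifitm5, Ifitm2, Ifitm1, Ifitm3 and Ifitm6. The stretches below, from RefSeq (GRCm38.p6), are shown because they hold the letters of the interferon-stimulated response element core, GAAA then any 2 bases then GAAA, next to the annotated starts of the genes with values. Capitals mark each match, and each stretch is read 5′ to 3′ on the minus strand. The first is chr7:141010716-141010745, which runs across the Ifitm3 start, and the second is chr7:140955981-140956010, upstream of the Ifitm2 start.
Ifitm3: cagGAAAAGGAAActtctgaGAAACCGAAA
Ifitm2: cagGAAAAGGAAAttgctagagaaagggcg
The longest run that these sites share is 13 bases. The Ifitm3 window, from 250 bases before to 50 after the start, held 2 matches, at positions 3 to 12 and 20 to 29, and the Ifitm2 window held 1, at -46 to -37.

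The Ifitm6 window, shown as a contrast from the same cluster, held no match on either strand. Its last 100 bases before the start (chr7:141016893-141016992, minus strand) follow.
Ifitm6: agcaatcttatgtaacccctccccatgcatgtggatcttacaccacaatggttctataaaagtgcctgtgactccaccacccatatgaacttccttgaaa
Of 32851 RefSeq windows of this length, 3.44% hold the interferon-stimulated core on either strand. TTCNNNGAA, the core of the gamma-activated sequence, is in 8.3% of them; it matched once in Ifitm3, at 14 to 22, where it overlaps the second response element match, and once in Ifitm6, at -10 to -2. The palindromic glucocorticoid response element (0.475% of windows) and its arm AGAACA (19%), both searched on either strand, had no match in the Ifitm2, Ifitm3 or Ifitm6 window. A match describes letters and does not show binding.

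The arrays and their quality bear on every value below. Values are log2 signals after background correction and quantile normalization, and a probe counted as detected at a detection p under 0.05. One array stands apart, female FA replicate 2: it detected 32.4% of probes, where the other 7 arrays detected 44.5% to 46.9%. The middle of its unprocessed signals was 191, and those of the other arrays lay at 99.5 to 109. A floor, the lowest log2 value among an array's detected probes, was 5.88 on that array and 4.90 to 4.99 on the rest. As a check of the labels, all 7 measured glucocorticoid-induced genes of a list of 8 rose with FA, among them Fkbp5, a chaperone of steroid receptors (4.01 ± 0.16, SE, limma adjusted p = 3.53e-05), and Tsc22d3, a mediator of glucocorticoid action (2.33 ± 0.18, adjusted p = 2.63e-04).

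Ifitm3, the member best known for blocking viral entry from endosomes, was detected on 8 of 8 arrays. Its level was 7.67 and 7.29 in FA females, against 10.87 and 10.80 in vehicle females. In males it was 8.49 and 7.88 with FA, against 11.07 and 11.47 with vehicle. All 4 FA arrays lay below all 4 vehicle arrays, and the highest FA value was far below the lowest vehicle value. Between the 2 arrays of a group the range was 0.39 in FA females against 0.07 in vehicle females. In males it was 0.61 with FA against 0.4 with vehicle. The FA female pair includes female FA replicate 2, where Ifitm3 lay 1.41 above the floor. These ranges were not tested.

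The mean of Ifitm3 was 7.48 ± 0.27 in FA females and 10.83 ± 0.05 in vehicle females (SD, n = 2 each), a difference of -3.35 ± 0.26 (SE), or 10.2-fold lower. In males it was 8.18 ± 0.43 with FA and 11.27 ± 0.28 with vehicle (SD, n = 2 each), a difference of -3.09 ± 0.26, or 8.49-fold lower. Between single arrays of the same sex the difference ran from -3.13 to -3.58 in females and from -2.58 to -3.59 in males. Averaged over the sexes it was -3.22 ± 0.18, 9.31-fold lower and the 6th lowest of 9416 genes. In that comparison 20.8% of all genes had an adjusted p under 0.05 (limma, Benjamini-Hochberg), in females alone 10% and in males alone 8.19%. Without female FA replicate 2 the averaged difference was -3.12 ± 0.18.

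Ifitm2, the nearest relative of Ifitm3 among those measured and likewise an antiviral membrane protein, was lower with FA by a smaller amount. Its level was 9.72 and 9.91 in FA females, against 11.10 and 11.15 in vehicle females. In males it was 9.80 and 10.25 with FA, against 11.09 and 10.93 with vehicle. The 4 FA arrays again lay below the 4 vehicle arrays, here with male FA replicate 2 nearest to the vehicle range.

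The mean of Ifitm2 was 9.81 ± 0.13 in FA females and 11.12 ± 0.04 in vehicle females (SD, n = 2 each), a difference of -1.31 ± 0.20 (SE), or 2.48-fold lower. In males it was 10.02 ± 0.32 with FA and 11.01 ± 0.11 with vehicle, a difference of -0.99 ± 0.20, or 1.99-fold lower. Single arrays of the same sex differed by -1.19 to -1.43 in females and by -0.69 to -1.30 in males. The averaged difference was -1.15 ± 0.14, 2.22-fold lower and the 272nd lowest of 9416, and -1.20 ± 0.15 without female FA replicate 2. The FA differences of Ifitm3 and Ifitm2 were not tested against each other.

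The unprocessed bead signals, before any correction, had the same order. For Ifitm3 they averaged 309 in FA females against 2190 in vehicle females, and 370 in FA males against 2190 in vehicle males. For Ifitm2 they averaged 1070 in FA females against 2620 in vehicle females, and 1060 in FA males against 1840 in vehicle males. For both genes the FA averages lay below the vehicle averages in each sex.

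**Figure D1:**
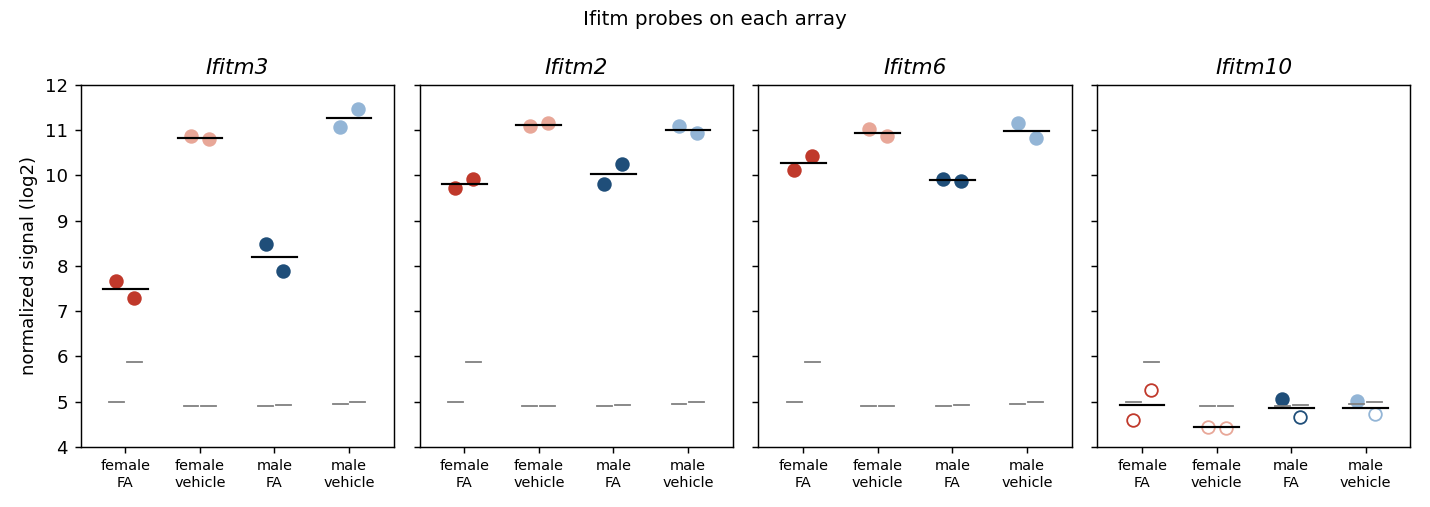
Normalized log2 signal (vertical axis) of the probes of Ifitm3, Ifitm2, Ifitm6 and Ifitm10 on each of 8 arrays, by group; filled points were detected, open points were not, black lines are group means and short grey lines each array's floor. Ifitm3 sits between 7.29 and 8.49 on FA arrays and between 10.80 and 11.47 on vehicle arrays, and Ifitm10 stays near the floor.

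Skin RNA comes from several cell types, and fewer cells of a type and less RNA per cell cannot be told apart here. Markers of 2 resident immune cell types were mostly lower with FA. Marker calls are those of the averaged FA comparison, where 11.4% of all genes were lower and 9.4% higher. Of 12 Langerhans and dendritic cell markers 8 were measured, of which 7 fell and 1, Cd86, rose, and their summed linear signal was 4050 to 4160 in FA females against 13100 to 13800 in vehicle females, and 2710 to 4330 in FA males against 13100 to 14800 in vehicle males. Of 12 markers of dendritic epidermal T cells 9 were measured and 7 fell, with sums of 1260 to 1300 in FA females against 2300 to 2360 in vehicle females, and 933 to 992 in FA males against 2570 to 2870 in vehicle males. Among those that fell were H2-Ab1 (-3.10 ± 0.22, adjusted p = 1.74e-04), an antigen-presentation gene, and Thy1 (-1.92 ± 0.14, adjusted p = 2.06e-04), a T cell surface protein.

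The 9 measured keratinocyte markers of 10 summed to 84300 to 86500 in FA females against 107000 in vehicle females, and to 84200 to 87900 in FA males against 106000 in vehicle males. Among them 2 rose and 3 fell, beside 9.4% higher and 11.4% lower of all genes. The suprabasal keratin Krt1 fell 8.02-fold (adjusted p = 5.91e-05). Ptprc, the common leukocyte antigen, was detected on 2 of 8 arrays, and Epcam, Ccr7, Itgax, Csf1r, Trdc, Gzmb and Il2rb had no probe with values. Sebaceous gland markers (5 of 8 measured lower) and fibroblast markers (3 of 9 lower) also fell in part. Of 2 measured erythrocyte markers 1 fell. Of 6 measured endothelial markers 1 was higher and none lower. Their median was 0.21, 2 of the 6 were negative and the highest value was 2.29. As few as 2 were detected on an FA array in each sex. How far 1 marker carries the endothelial sums was not tested. These sums were 582 to 626 in FA females against 211 to 249 in vehicle females. In males they were 689 to 1060 with FA against 298 to 391 with vehicle. Of 7 measured neutrophil, macrophage and mast cell markers 3 rose and 2 fell. The part of these cell types in the Ifitm values was not tested.

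The comparison between the sexes was not used to choose the members and was tested in limma over all genes. In vehicle skin, Ifitm3 averaged 11.27 in males and 10.83 in females, a difference of 0.43 ± 0.26 (95% interval -0.18 to 1.04, adjusted p = 0.936). Ifitm2 averaged 11.01 in males and 11.12 in females, a difference of -0.11 ± 0.20 (interval -0.57 to 0.36, adjusted p = 0.999). Neither passed, where 0.0743% of all genes did (0.0319% higher and 0.0425% lower in males).

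In FA skin, Ifitm3 averaged 8.18 in males and 7.48 in females, and the 2 male arrays lay above the 2 female ones. The difference of 0.70 ± 0.26 (interval 0.09 to 1.31) had an unadjusted p of 0.0294 and a limma adjusted p of 0.366, so it did not pass, and over 20 alternative settings its adjusted p lay between 0.0529 and 0.755. Ifitm2 averaged 10.02 in males and 9.81 in females, with overlapping arrays and a difference of 0.21 ± 0.20 (interval -0.26 to 0.67, adjusted p = 0.654). In this comparison 0.202% of all genes passed (0.191% higher and 0.0106% lower in males). Without female FA replicate 2 the Ifitm3 difference was 0.51 ± 0.29 (adjusted p = 0.755).

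The test of whether FA acted differently in males and females is the difference of the FA effects, male minus female. It was 0.27 ± 0.37 for Ifitm3 (interval -0.60 to 1.13, adjusted p = 0.857) and 0.32 ± 0.28 for Ifitm2 (interval -0.34 to 0.98, adjusted p = 0.799), so neither passed, beside 0.0212% of all genes (0.0212% with the male effect higher and 0% with it lower). The intervals leave room for differences of about 1 log2 unit, so a like response in both sexes is not shown. The Ifitm3 difference was -0.04 ± 0.35 without male FA replicate 1, so its direction rests on that array, and in FA skin the male minus female value of Ifitm2 was -0.02 ± 0.21 without male FA replicate 2.

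Markers of other tissues also differed between the sexes. All 9 measured fibroblast markers were higher in males, with sums of 1140 to 2210 in FA males against 596 to 1130 in FA females, and 3930 to 6610 in vehicle males against 1480 to 1730 in vehicle females, although none passed singly. Summed skeletal muscle markers were 13200 to 24000 in FA males against 474 to 1170 in FA females, and 7450 to 7660 in vehicle males against 1730 to 4570 in vehicle females. Of the 9 measured muscle markers 5 passed singly as higher in FA males than in FA females, where 0.191% of all genes did. None of them passed in vehicle. All 8 measured sebaceous and upper follicle markers were higher in FA males than in FA females (median difference 1.56, none passing singly), with sums of 11900 to 21400 in FA males against 5370 to 9220 in FA females, and 21700 to 22100 in vehicle males against 21500 to 23800 in vehicle females. The part of these tissues in the sex values of the Ifitm genes was not tested.

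Other genes of the Ifitm and wider dispanin family were set beside the members. Of 11 listed, 4 were measured, with 1 lower and none higher in the averaged FA comparison, where 11.4% of all genes were lower and 9.4% higher. The one that fell was Ifitm6, the gene next to Ifitm3, known in mice for expression in haematopoietic cells. Its level was 10.13 and 10.43 in FA females, against 11.03 and 10.86 in vehicle females. In males it was 9.93 and 9.87 with FA, against 11.15 and 10.82 with vehicle, so that FA arrays were again the lower ones.

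Ifitm6 fell by 0.87 ± 0.13 on the log2 scale, or 1.83-fold (limma adjusted p = 0.00493), and the call held under all 21 alternative settings. In males alone the difference was -1.09 ± 0.19 (adjusted p = 0.0156) and in females -0.66 ± 0.19 (adjusted p = 0.0697), a miss that became a pass in 5 of 21 alternatives (adjusted p between 0.012 and 0.0286), and the difference between these, -0.42 ± 0.27, did not pass (adjusted p = 0.756). The male call was lost without either array of male vehicle or of male FA (adjusted p between 0.058 and 0.112), with median scaling over all probes (0.259) and with replicate numbers as blocks within each sex (0.057).

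Ifitm10, a distant relative, was at 4.59 and 5.25 in FA females, against 4.44 and 4.42 in vehicle females, and at 5.06 and 4.66 in FA males, against 5.01 and 4.72 in vehicle males. It was detected on 1 male FA and 1 male vehicle array, with both group means below the floor in each sex, so no fold is given. Prrt1 (0.44 ± 0.19) and Trarg1 (-0.15 ± 0.11), dispanins of neurons and fat, did not pass. Ifitm5 and Ifitm7 had no named probe. Probe sequences were not used here, so whether a probe also binds the RNA of another Ifitm gene was not tested.

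Ifitm genes are targets of interferon signals, and the genes of that pathway were grouped by role, as were the family's relatives, partners and chromosomal neighbours. Over these 8 lists, 107 of 161 distinct genes were measured, of which 26 fell and 12 rose in the averaged FA comparison, where 11.4% of all genes were lower and 9.4% higher. With median scaling over all probes 21 fell and 1 rose. The count of 26 was smaller without female vehicle replicate 1, female vehicle replicate 2, male vehicle replicate 2 or male FA replicate 2. The count of 12 was smaller without any 1 of the vehicle or male FA arrays and larger without female FA replicate 1. The counts over all genes moved the same way in each of these settings, which leave 1 array in a group. The plot of the lists shows each gene and each list's median.

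**Figure D2:**
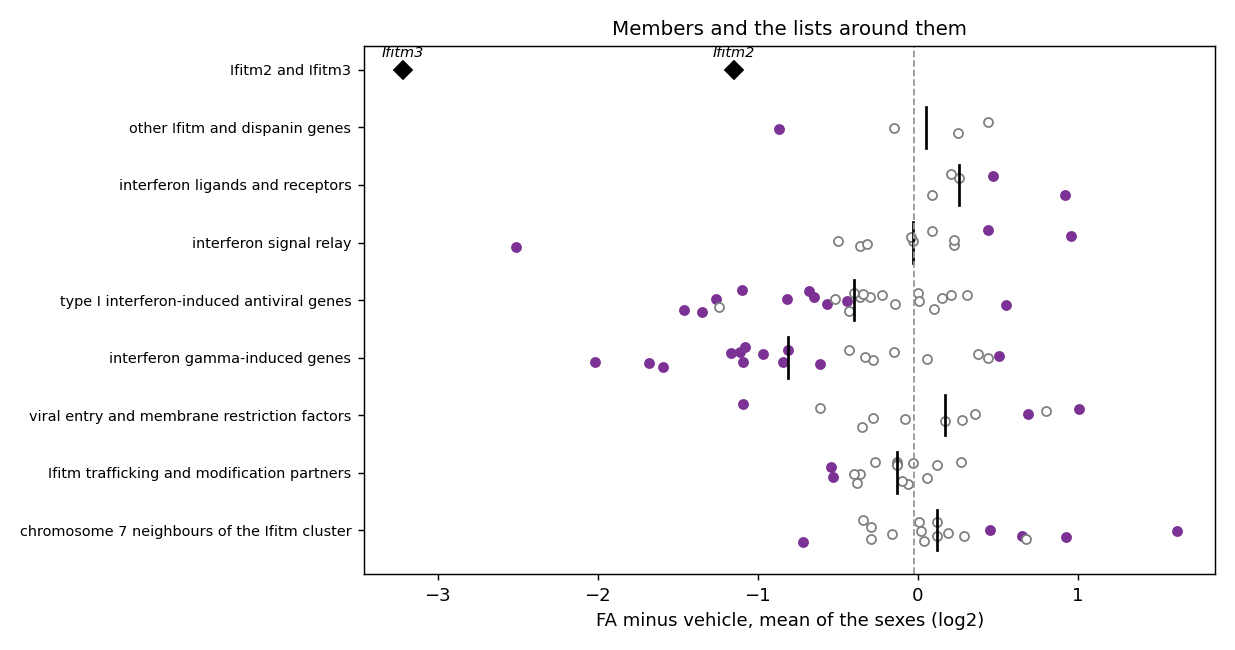
FA minus vehicle, averaged over the sexes (log2, horizontal axis), for Ifitm3 and Ifitm2 (diamonds) and for the measured genes of 8 lists; purple points passed at an adjusted p under 0.05, open points did not, black bars are list medians and the dashed line is the median of all 9416 genes, -0.02. Medians are -0.81 for interferon gamma-induced genes and -0.40 for type I interferon-induced genes, and the points of every list lie to the right of Ifitm3.

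At the head of the pathway, 5 of 10 listed ligands and receptors were measured, and all are receptor chains. Of these 2 rose and none fell, with a median of 0.26, beside 9.4% higher and 11.4% lower of all genes. Ifngr1, the ligand-binding chain of the interferon gamma receptor, averaged 10.22 in FA females against 9.30 in vehicle females and 10.11 in FA males against 9.20 in vehicle males, a rise of 0.92 ± 0.11 (adjusted p = 0.0018). Ifngr2, its signalling chain, rose by 0.47 ± 0.13 (adjusted p = 0.0397), but its probes disagree, and with the mean of all its probes the value was -0.12. The lambda receptor chain Ifnlr1 (0.26 ± 0.14), Il10rb (0.21 ± 0.24) and Ifnar2 of the type I receptor (0.09 ± 0.14) did not pass. The Ifngr1 call was lost with median scaling over all probes (adjusted p = 0.172), and the Ifngr2 call there (0.746) and without any 1 of the female vehicle, male vehicle or male FA arrays (adjusted p between 0.0575 and 0.131), with blocks within sex (0.0851) and with array weights (0.0548). Ifnk, Ifne, Ifnb1, Ifng and Ifnar1 had no probe with values.

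In the relay from receptor to nucleus 11 of 14 genes were measured, of which 1 fell and 2 rose, with a median of -0.03. Of all genes 11.4% were lower and 9.4% higher. Irf1, a transcription factor that binds interferon response elements, averaged 7.01 in FA females against 9.54 in vehicle females and 7.34 in FA males against 9.84 in vehicle males. It fell 5.71-fold (-2.51 ± 0.16, adjusted p = 1.26e-04), and the call held under every alternative run. Socs3, a feedback inhibitor of JAK-STAT signalling, rose by 0.96 ± 0.17 (adjusted p = 0.00973). Irf3, a sensor-activated factor that induces interferon, rose by 0.44 ± 0.11 (adjusted p = 0.0283), a call lost without any 1 of the female vehicle, male vehicle or male FA arrays (adjusted p between 0.0631 and 0.102) and with blocks within sex (0.0698). Both rises were lost with median scaling over all probes (0.144 for Socs3 and 0.808 for Irf3). The kinases Jak1 (-0.50 ± 0.19, adjusted p = 0.110), Jak2 and Tyk2, and Stat2, Stat3 and Irf9, did not pass, and Irf7 and Socs1 had no probe with values.

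Among targets of type I interferon, the same class as the Ifitm genes, 25 of 40 were measured. Of these 9 were lower and 1 higher, with a median of -0.40, beside 11.4% lower and 9.4% higher of all genes. Eif2ak2, the kinase that halts translation on viral double-stranded RNA, averaged 7.43 in FA females against 8.30 in vehicle females and 7.39 in FA males against 8.72 in vehicle males, a fall of 1.10 ± 0.17 (adjusted p = 0.00445). Usp18, which removes ISG15 from proteins, fell by 1.26 ± 0.20 (adjusted p = 0.00555), and Trim21, an antibody receptor in the cytosol, fell by 0.57 ± 0.11 (adjusted p = 0.0124). Oasl2, of the oligoadenylate synthetase family, fell by 1.46 ± 0.30 (adjusted p = 0.0144) and was not detected on any FA array; in males it was at least 3.69-fold lower. Ifi27, Ifit3, Oas1g, Rsad2 and Samd9l also passed as lower, and Isg20 as higher, each with calls that did not hold throughout. Rsad2 was detected on the 2 male vehicle arrays alone, so it entered the comparison only through the group where it was highest. With values set to the floor it was at -0.11 (limma adjusted p = 0.739). The Isg20 call was lost in 14 of 20 alternatives, among them both replicate blocks (adjusted p = 0.062, and 0.101 within sex) and each setting without a vehicle or male FA array (between 0.0536 and 0.147). The calls were lost in 8 of 21 alternatives for Ifi27, in 10 of 20 for Ifit3, in 5 of 20 for Oas1g, in 9 of 20 for Rsad2 and in 6 of 21 for Samd9l, each time including settings without a vehicle array or without a male FA array (adjusted p between 0.0532 and 0.12). Isg15 itself, detected on 3 of 8 arrays, did not pass (adjusted p = 0.622), and its value was 0.82 without female FA replicate 1 (adjusted p = 0.00161) and -0.21 without female FA replicate 2 (0.297).

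By sex, none of the 25 type I targets passed in females, where 5.46% of all genes were lower and 4.57% higher, and 7 were lower in males, where 4.17% were lower and 4.01% higher. The difference between the sexes passed for none of them. Rsad2 and Oasl2, detected on vehicle arrays alone, are among the 9 of the averaged comparison and among the 7 in males. The count of 9 was smaller without female vehicle replicate 1, female vehicle replicate 2, male vehicle replicate 2, male FA replicate 1 or male FA replicate 2. The count over all genes was smaller there too, and each of these fits leaves 1 array in a group. Setting values below each array's floor to that floor moved the list median to 0.08 and that of all genes to 0.10, so the list's median was then no longer below zero. The Oasl2 call was lost in that setting and without female vehicle replicate 1 (adjusted p = 0.0663), male FA replicate 1 (0.0514) or male FA replicate 2 (0.0564), and the Trim21 call without female vehicle replicate 2 (0.0513) or male vehicle replicate 2 (0.0559) and with median scaling over all probes (0.0585).

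Of 25 genes more typical of interferon gamma 19 were measured, with 11 lower, 1 higher and a median of -0.81. The shares of all genes were 11.4% lower and 9.4% higher. Cxcl9, among the 11, was detected on vehicle arrays alone, so it entered the comparison only through the groups where it was higher. The list median was -0.45 without background correction and -0.38 over the 10 genes detected on all 8 arrays, where that of type I targets was -0.57 over 9 genes. Of those 10 interferon gamma genes 5 were lower and 3 higher in that setting. Ciita, the master activator of MHC class II genes, was at least 2.64-fold lower in females and at least 3.57-fold lower in males, with its FA means below the floor (adjusted p = 3.01e-04). The immunoproteasome subunits Psmb10 (-1.68 ± 0.18, adjusted p = 0.00112) and Psmb9 (-0.97 ± 0.13, adjusted p = 0.00303) fell, while Psmb8 (-0.33 ± 0.17) did not pass. Igtp, a GTPase of cell-autonomous immunity, fell (adjusted p = 0.00152). It was at least 1.94-fold lower in females, where its FA mean was below the floor, and 2-fold lower in males. Its relative Irgm1 instead rose by 0.51 ± 0.13 (adjusted p = 0.0314). The Irgm1 call was lost in 9 of 21 alternatives: with both median scalings (0.717 over all probes, 0.0548 over the kept ones), with the mean of its probes (0.164), with blocks within sex (0.0527), and without female vehicle replicate 2 or any 1 of the male arrays (between 0.0831 and 0.106). B2m, the light chain of MHC class I, was at 13.59 in FA females against 13.73 in vehicle females and at 13.85 in FA males against 13.58 in vehicle males, and did not pass (0.06 ± 0.11).

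In females 6 of these 19 were lower, beside 5.46% of all genes, and in males 5, beside 4.17%. Cxcl9, detected on vehicle arrays alone, is among the 5 in males. The difference between the sexes passed for none of the 19. The calls of Ciita, Psmb10, Psmb9 and Igtp held under each alternative that measured them. The count of 11 was smaller without female vehicle replicate 1, male vehicle replicate 1, male vehicle replicate 2 or male FA replicate 2. So was the count over all genes, and each of these fits leaves 1 array in a group. Ciita and the MHC class II genes are also markers of antigen-presenting cells, whose sums are given above, and their part in these falls was not tested.

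Of 14 other factors that act against viruses at entry or at membranes, 11 were measured, with 2 higher, 1 lower and a median of 0.17, beside 9.4% higher and 11.4% lower of all genes. Serinc3, a membrane protein that hinders retrovirus infectivity, averaged 10.01 in FA females against 8.99 in vehicle females and 10.03 in FA males against 9.04 in vehicle males, a rise of 1.01 ± 0.11 (adjusted p = 0.00116). Ly6e, a surface protein that restricts coronaviruses, rose by 0.69 ± 0.16 (adjusted p = 0.0252). Ch25h, which makes 25-hydroxycholesterol, fell and was at least 1.38-fold lower in females and at least 1.22-fold lower in males (adjusted p = 0.00291). Detected on vehicle arrays alone, Ch25h entered the comparison only through the groups where it was higher. The list's count of 1 lower gene rests on Ch25h. The ubiquitin ligase Marchf1 (-0.61 ± 0.18, adjusted p = 0.0513), not detected on any FA array, missed the threshold but passed in 5 alternatives (between 0.00355, without female FA replicate 2, and 0.0494).

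The rises of Serinc3 and Ly6e were lost with median scaling over all probes (adjusted p = 0.0914 and 0.424), and the fall of Ch25h with values set to the floor (0.257). The Ly6e call was also lost without female vehicle replicate 1, male vehicle replicate 1, male FA replicate 1 or male FA replicate 2 (adjusted p between 0.0747 and 0.0928).

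Proteins that route or modify IFITM3 made up the next list, and 15 of 17 were measured, with 2 lower, none higher and a median of -0.13, near the 11.4% of all genes that were lower. Cd81, a tetraspanin reported to bind IFITM proteins, fell by 0.54 ± 0.12 (adjusted p = 0.0196), and Ap2m1, the adaptor subunit that reads the endocytic signal, fell by 0.53 ± 0.12 (adjusted p = 0.0205). Ap2s1 (-0.40 ± 0.14) and Cd9 (-0.38 ± 0.17) did not pass. The palmitoyltransferases Zdhhc3, Zdhhc7 and Zdhhc20 and the ubiquitin ligase Nedd4 did not pass either, at 0.27 ± 0.19, -0.13 ± 0.14, 0.12 ± 0.24 and -0.27 ± 0.27. The Cd81 call was lost without female vehicle replicate 1 or any male array (adjusted p between 0.0506 and 0.0794), and that of Ap2m1 without any vehicle array or male FA replicate 2 (between 0.0665 and 0.0746). Both were also lost with median scaling over all probes (0.0599 and 0.0706) and with blocks within sex (0.0607 and 0.0561).

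Genes around the cluster on chromosome 7 were read to see how far the lower values reached. Of 31 neighbours 17 were measured, with 4 higher, 1 lower and a median of 0.12, beside 9.4% higher and 11.4% lower of all genes. The nearest measured gene on the Ifitm2 side, Pgghg, was at 0.12 ± 0.17 and the nearest on the Ifitm6 side, Pkp3, a plakophilin of desmosomes, at -0.16 ± 0.14, and neither passed. Pnpla2, a triglyceride lipase farther along, rose by 1.62 ± 0.11 (adjusted p = 1.43e-04). Eps8l2 rose by 0.93 ± 0.19 (adjusted p = 0.0146), Tmem80 by 0.65 ± 0.14 (adjusted p = 0.0168) and the mitochondrial deacetylase Sirt3 by 0.45 ± 0.11 (adjusted p = 0.0244), while Taldo1, an enzyme of the pentose phosphate pathway, fell by 0.72 ± 0.16 (adjusted p = 0.0188). Ifitm3, Ifitm2 and Ifitm6 had the lowest averaged values of the 20 measured genes in this stretch, a description for the first pair.

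The Taldo1 call was lost without any vehicle array or male FA replicate 2 (adjusted p between 0.0507 and 0.072), the Tmem80 call without female vehicle replicate 1, either male vehicle array or male FA replicate 2 (between 0.0573 and 0.0688), and the Eps8l2 call without male vehicle replicate 1 (0.0591) or male FA replicate 2 (0.0604). With median scaling over all probes, Tmem80 (0.306) and Eps8l2 (0.167) did not pass, nor did Tmem80 with blocks within sex (0.051). The Sirt3 call was lost in both of these settings (0.774 and 0.0708) and without any 1 of the vehicle or male FA arrays (between 0.0657 and 0.0913).

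**Figure D3:**
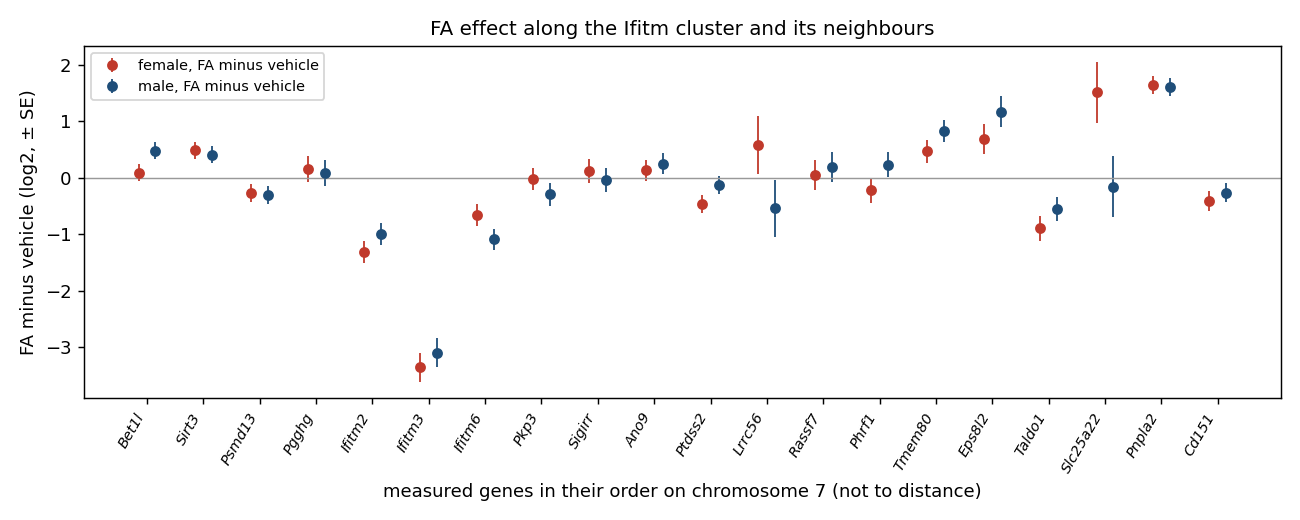
FA minus vehicle (log2, vertical axis) in females (red) and males (blue) for the measured genes around the Ifitm cluster in chromosomal order, not to distance; bars are standard errors from the fit on 2 arrays per group. Ifitm3 reaches -3.35 in females and -3.09 in males, and the genes on both sides of the cluster, Pgghg and Pkp3, lie between -0.29 and 0.15.

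The genes whose pattern over the 8 arrays was most like each member's were found by the root mean square difference of log2 values after each gene's mean was removed. For Ifitm3, among 9415 other genes, the closest were H2ac12 (0.17), Krt1 (0.193), H2ac10 (0.199), Col18a1 (0.256) and H2ac7 (0.259). The set holds replication-dependent histones, which have near-identical paralogs, an epidermal keratin and a basement membrane collagen. Their FA minus vehicle values lay between -3.58 and -2.82 in females and between -3.10 and -2.88 in males.

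For Ifitm2 the closest were the zinc transporter Slc39a6 (0.153), Ugt3a2 (0.155, detected on 4 of 8 arrays), the ceramidase Acer1 (0.166), the BMP-binding protein Twsg1 (0.172) and the ATP synthase subunit Atp5g1 (0.172). No gene of the interferon lists was among the 5 closest of either member. All 8 lists together hold 107 of the 9416 genes, so this absence says little about the members. Between the members the difference was 1.12, which placed Ifitm2 267th in likeness to Ifitm3 but Ifitm3 9032nd of 9415 in likeness to Ifitm2. Ifitm6 was 177th in likeness to Ifitm2 (0.296) and 554th to Ifitm3 (1.27). The measure includes the step between FA and vehicle arrays that chose the members, so likeness to a member is a description.

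**Figure D4:**
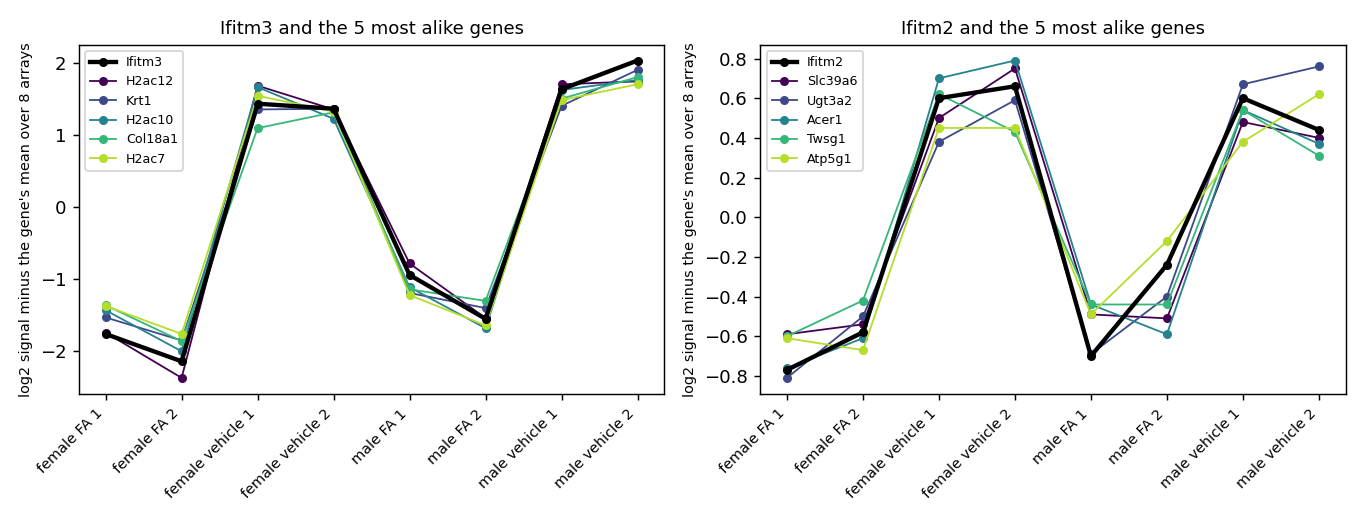
Log2 signal minus the gene's own mean over 8 arrays (vertical axis) on each array, for Ifitm3 with its 5 closest genes (left) and Ifitm2 with its 5 closest (right), each panel with its own vertical scale. Ifitm3 and its set step by about 3 units between FA and vehicle arrays, Ifitm2 and its set by about 1.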

How the data were processed

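RNA from epidermis was measured on 8 Illumina bead arrays, 2 per group. Per the file headers, the deposited unprocessed table holds bead intensity and detection p-value columns for 25697 probes, and the deposited matrix holds log2 values for 13247. The submitters' processing notes name limma. Running neqc (limma 3.58.1, R 4.3.3; normexp with an offset of 16, controls inferred from the detection p-value, then quantile normalization) matched the deposited log2 matrix with a difference of at most 5.00e-09. The 13247 kept probes are those with a detection p below 0.05 on 2 or more arrays; 12476 had 1 symbol, 771 had none and were left out, and none had several. Platform symbols were checked through Entrez IDs against RefSeq, which held 12471 of these probes' IDs and changed no symbol. Of a gene's probes the brightest was used, leaving 9416 genes.

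The 4 groups were fitted as means in 1 limma model (lmFit, eBayes; 4 residual and 3.35 prior degrees of freedom). Errors after ± are its standard errors unless marked SD, tests are two-sided, and p-values are Benjamini-Hochberg adjusted over 9416 genes. The fit was run on simulated data with independent noise of equal spread on all arrays and known shifts in the averaged FA effect. The sex comparisons, a deviating array and values at the floor were not simulated. Where a group mean was below its arrays' mean floor, or no array of the group was detected, a fold is "at least" and computed against that floor. Arrays have no read depth; their number limits the precision. Alternatives covered background correction, scaling, filters, probe choice, variance model, pairing and leaving out each array. The members and lists were chosen with earlier results of these data known. Named genes are the members, up to 4 per list with the smallest p for the averaged FA effect, the 5 genes most like each member, up to 3 genes per marker list with the smallest p and 2 check genes; Psmb8, B2m, Isg15, unmeasured genes and the remaining genes named as passing or not passing were added after their values were seen. Sequences come from RefSeq.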

Additional observations from a re-analysis of the deposited data

Results flagged for a closer look

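Summed skeletal muscle markers moved in opposite directions with FA in the sexes on all arrays. They were higher in FA males than in vehicle males and lower in FA females than in vehicle females, and the log2 FA effect in males exceeded that in females by 3.15. That difference of the sums was not tested. Taken singly, none of the 9 measured muscle markers passed for the difference of the FA effects between the sexes. The Ifitm values were not adjusted for the muscle markers.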

How the results depend on the processing

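With 2 arrays per group, 21 alternatives were run, or 20 where a value could not be had (the block within sex gives no sex differences, and some genes are not detected on all arrays); a block for chip position was not run because the headers give none. Ifitm3 stayed lower with FA in all 21 (-3.50 to -2.79; -2.79 without background correction) and Ifitm2 in all 21 (-1.42 to -1.04; -1.42 with median scaling over all probes). Leaving out each array gave -3.37 to -3.07 for Ifitm3 and -1.26 to -1.04 for Ifitm2. Values that turned sign were the male minus female value in FA of Ifitm2 (-0.02 without male FA replicate 2; -0.02 to 0.44 over left-out arrays), the sex difference of the FA effect of Ifitm3 (-0.04 without male FA replicate 1; -0.04 to 0.57) and of Ifitm6 (0.32 with median scaling), Ifngr2 (-0.12 with the mean of all probes), Ifnlr1 (-0.01 with median scaling), Il10rb (-0.05 without female FA replicate 1, the lowest over left-out arrays, and 0.47 without female FA replicate 2, the highest), B2m (-0.21 with median scaling), Isg15 (-0.21 without female FA replicate 2, the lowest over left-out arrays, and 0.82 without female FA replicate 1, the highest) and Trarg1 (0.14 with values at the floor, 0.07 with median scaling over kept probes). Counts over left-out arrays ran from 11 to 36 lower and 4 to 21 higher for all listed genes, from 3 to 13 lower for type I targets and from 5 to 12 lower for interferon gamma targets, which had 5 lower among genes detected on all 8 arrays. Listed genes higher numbered 1 with median scaling and 6 with the replicate block within sex. Over all genes, 1070 were lower and 885 higher, against 850 and 245 with median scaling over all probes, where the median of all genes was -0.19, and 956 and 985 with median scaling over the kept probes, an alternative chosen after seeing the data. Left-out arrays gave 523 to 2002 lower and 464 to 1583 higher; the highest counts came without female FA replicate 1. Same-numbered arrays of different groups had deviations that correlated at -0.0341 to 0.234, so the numbers were not taken to pair the arrays; with the replicate block Ifitm3 was at -3.22 and Ifitm2 at -1.15, and 25 listed genes were lower and 11 higher. The causes of these moves were not tested.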
